A study of Mus musculus with 26 samples.

Results

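The primed against the naive pluripotent state was compared at the level of messenger RNA, in epiblast-derived stem cells (EpiSCs) against wild-type (WT) embryonic stem cells (ESCs) of the mouse. The members are 2 sets of RNA sequencing libraries, 4 of EpiSCs and 3 of WT ESCs, which are 7 of the 26 samples of the series, and all 15646 genes with a value in the expression table were compared. The rest of the series is promoter capture Hi-C, ChIP-seq of EpiSCs, and 3 RNA libraries of *Nanog*-/- ESCs. The ESCs are E14Tg2a cells (129P2/OlaHsd), grown on gelatin in medium with 15% serum and 1000 U/ml LIF. The *Nanog*-/- ESCs (RCNβH-B(t), derived from E14Tg2a) shared that medium, with hygromycin during expansion. The EpiSCs are 129S2 cells taken from embryos, grown on fibronectin (10 µg/ml) in N2B27 with 20 ng/ml Activin A and 12 ng/ml bFGF, and their labels give no genotype. The strain labels name C57BL/6 for both cell types, which differs from the strains given for the lines. Each cell type is represented by 1 line, so state, line, strain, surface and medium cannot be told apart. The table holds a single median RPKM (read count scaled to the length of the gene and the size of the library) for each cell type, as the authors computed it, so no value below has a replicate error and no difference was tested. The libraries' depth is unknown, and nothing says that they came from separate cultures.

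ESCs in serum and LIF represent the naive state of the preimplantation epiblast, which is held by LIF through STAT3 and by factors such as *Klf4*, *Esrrb* and *Nanog*. EpiSCs represent the epiblast after implantation, which depends on Activin/Nodal and FGF signals and can express genes of the primitive streak, the site where mesoderm and endoderm form. Both states use *Pou5f1*, which encodes OCT4, and *Sox2*.

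The EpiSC values were higher for most genes at 1 RPKM or more in both, with a median EpiSC/ESC ratio of 1.89 over these 9077 genes. The EpiSC column was divided by this ratio, and all EpiSC levels given here are scaled. The unscaled columns sum to 519857 in WT ESCs and 716468 in EpiSCs. The ratio was 1.70 over genes at 10 RPKM or more in both and 1.35 over genes at 100 RPKM or more, so a single factor does not centre genes of all levels. Differences are of log2(RPKM + 1), EpiSCs minus WT ESCs, which understates the change of low genes. A gene was counted as expressed at 1 RPKM or more in either cell type, and as higher or lower when the levels plus 1 differed by at least 2-fold. A gene near 0 in 1 cell type passes this filter only through a high level in the other, so its direction is fixed by the filter.

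Of 10532 expressed genes, 1633 were at least 2-fold higher in EpiSCs (15.5%) and 1512 at least 2-fold lower (14.4%), while 7387 lay within 2-fold. Of the 8845 genes at 1 RPKM or more in both, 12.9% were higher and 9.53% lower, and at 4-fold 3.09% and 3.11%. At 4-fold, 436 genes were higher (4.14%) and 611 lower (5.8%). At 8-fold the counts were 80 higher and 330 lower. The median difference was 0.01, and the middle 50% of genes lay between -0.57 and 0.63. The split between higher and lower genes depended on the scaling. Without it, 4702 genes were 2-fold higher and 904 lower, and with both columns brought to the same total 2741 were higher and 1117 lower. These settings moved the median of all genes to 0.86 and 0.44, and every difference below is relative to the median of all genes. Counts within lists and families below stand against the shares of all expressed genes, 15.5% higher and 14.4% lower.

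**Figure D1:**
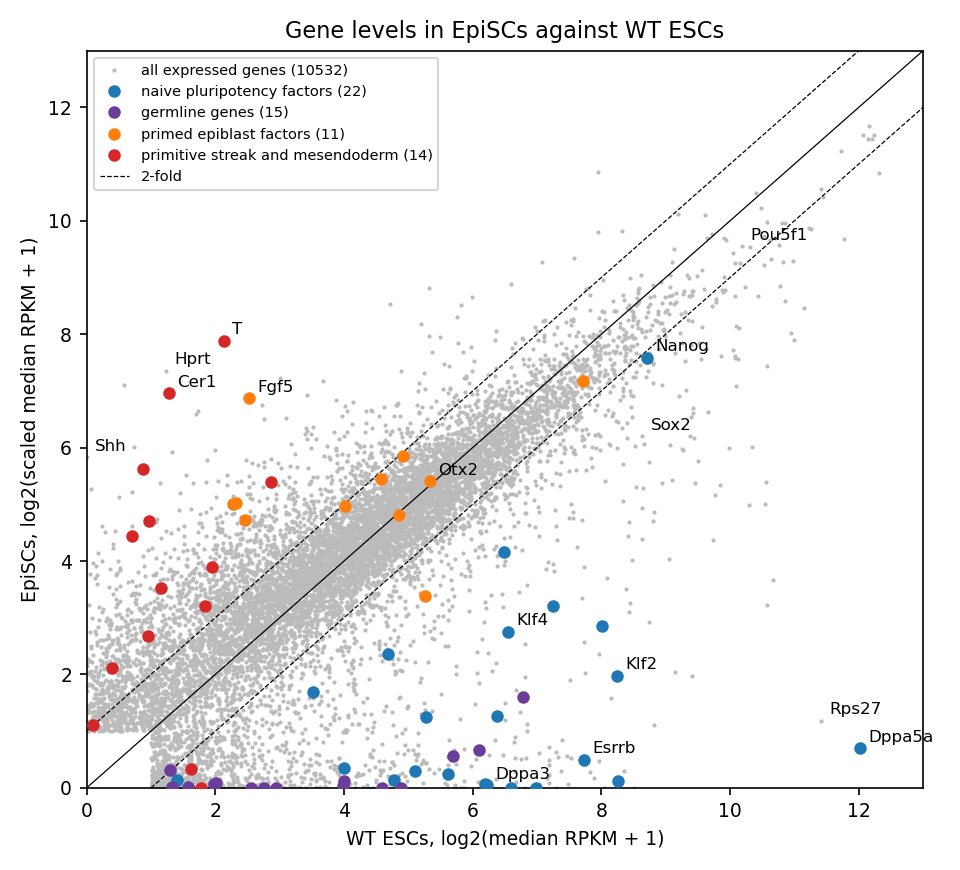
Each point is 1 of the 10532 expressed genes, with the WT ESC level on the x axis and the scaled EpiSC level on the y axis, both as log2(median RPKM + 1). Colours mark 4 gene lists, the solid line equality and the dashed lines 2-fold. All 22 naive factors lie below the lower dashed line, and 12 of the 14 primitive streak genes above the upper one.

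The markers of the 2 states were read first. *Klf2*, a Krüppel-like factor of the naive network, stood at 302 RPKM in WT ESCs and 2.95 in EpiSCs. *Klf4*, from the same family, went from 93 to 5.76, and *Dppa3*, a maternal factor of early embryos and germ cells, from 74.1 to 0.032. *Fgf5*, the growth factor that marks the postimplantation epiblast, stood at 4.74 RPKM in WT ESCs and 116 in EpiSCs. *T* (Brachyury), the T-box factor of the primitive streak, went from 3.37 to 236. These 5 differed as the names of the states say. *Dppa3* is not among the low-copy genes defined below, so the size of its fall is uncertain. *Otx2*, a homeobox factor of the primed state, was at 39.5 and 41.4 RPKM, a log2 difference of 0.07, so it did not separate these cells. *Zfp42* was not analysed here.

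A further identity check came from the second largest rise in the table. *Hprt*, the purine salvage enzyme, stood at 1.35 RPKM in WT ESCs, 4.81 in *Nanog*-/- ESCs and 163 in EpiSCs. E14Tg2a is known as an HPRT-deficient line, and *Nanog*-/- ESCs derive from it. For this gene line and state cannot be told apart.

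Many of the largest falls were in genes whose sequence occurs more than once in the genome. For each of the 10432 expressed genes that matched a GENCODE transcript, the share of 50-base windows of the spliced transcript with a further exact copy in GRCm38 was computed. The median difference was 0.20 for the 1447 genes with no such window and 0.08 for the 7478 genes with up to 5% of windows. It was -0.62 for the 398 genes between 20% and 50%, -1.40 for the 219 genes between 50% and 80%, and -3.07 for the 110 genes above 80%. Of those 110, 88.2% were at least 2-fold lower in EpiSCs. *Nanog*-/- ESCs, set against the same WT ESC column without scaling, had a median difference of -0.05 for these 110 genes, and 0 of them were 2-fold lower. The libraries were sequenced as 50 or 100 base reads, and the sources used here do not say which cell type had which or how reads with several matches were treated. Whether read length or such reads account for the pattern was not tested. Of the 100 largest falls, 64 had over 20% repeated windows, against 4 of the 100 largest rises. The 8925 genes with at most 5% are called low-copy genes below. Counts for them are given beside some of the lists where they differ, but not beside all.

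**Figure D2:**
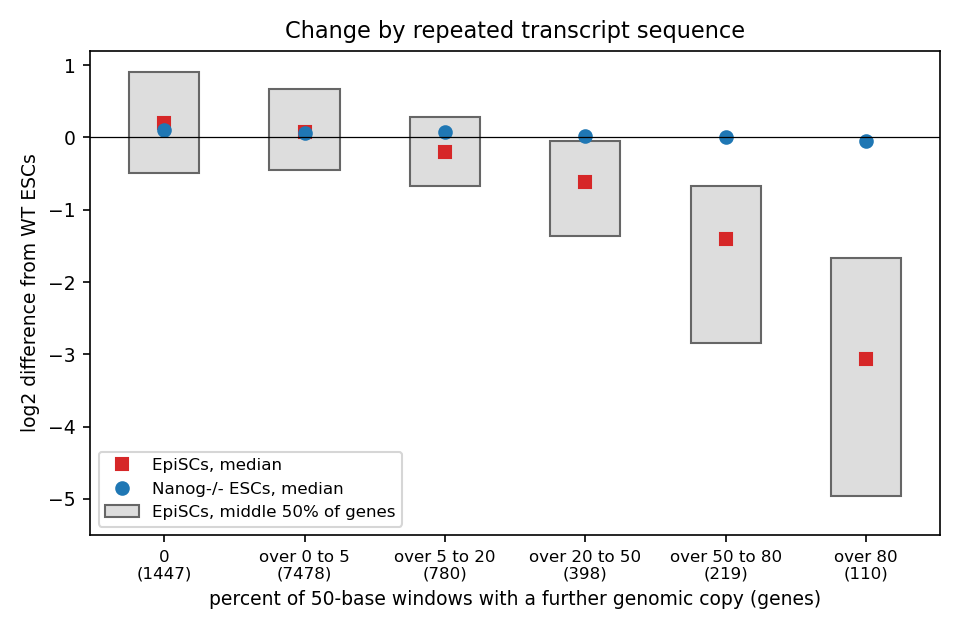
Genes are grouped on the x axis by the percent of 50-base transcript windows with a further exact genomic copy, with the number of genes in brackets. The y axis is the log2 difference from WT ESCs, the grey bars span the middle 50% of genes in EpiSCs, red squares are EpiSC medians and blue circles *Nanog*-/- ESC medians. The EpiSC median falls from 0.20 to -3.07 from left to right, while that of *Nanog*-/- ESCs stays between -0.05 and 0.10.

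The coding sequences below show such copies, 1 window each from 3 of the most changed genes, in GRCm38 and on the strand of the gene. Each is the window with the most copies among the coding windows searched in its gene, so the copy counts are maxima. The *Rps27* window (chr3:90213227-90213276, minus strand) has 5 further exact copies, among them 1 in *Rps27rt* and 3 in processed pseudogenes. The *Rpl3* window (chr15:80080478-80080527, minus strand) has 16, including 1 in *Gm5879*. The *Dppa5a* window (chr9:78367829-78367878, minus strand) has 5, of which 2 lie in the neighbouring *Dppa5b* and *Dppa5c* pseudogenes.
Rps27: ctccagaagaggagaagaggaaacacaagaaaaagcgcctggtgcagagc
Rpl3: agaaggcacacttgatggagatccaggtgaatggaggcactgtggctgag
Dppa5a: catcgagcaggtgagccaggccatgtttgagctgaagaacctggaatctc

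*Rps27*, a protein of the small ribosomal subunit, went from 2725 RPKM to 1.27, and *Rpl3*, of the large subunit, from 1521 to 8.34. *Gm5879*, a pseudogene copy of *Rpl3*, went from 160 to 0.45. In *Nanog*-/- ESCs *Rps27* stood at 2442 RPKM and *Rpl3* at 1354. *Dppa5a*, an RNA-binding protein used as a naive marker, went from 4144 to 0.63, the largest fall in the table. A 50-base read from these windows has no single place in the genome, so the levels of these 3 genes are uncertain.

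The family of cytosolic ribosomal proteins had 49 of 56 members at least 2-fold lower and 0 higher, with a median of -2.59. Only 2 of the 56 are low-copy. Of 21 expressed genes with names marked as pseudogenes (-ps), 18 were lower, with a median of -3.92, and of 280 genes with Gm numbers 168 were lower. The 92 low-copy Gm genes had a median of 0.29, opposite in sign to the -1.71 of the whole family. Among other genes, *Gapdh* (1016 to 63.1 RPKM), *Hspa8* (1298 to 63.3) and *Stmn1* (356 to 15.1) had 85.5%, 76.2% and 85.3% repeated windows. The part of such windows in the difference of each gene was not tested.

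Among the 8925 low-copy genes, 1534 were at least 2-fold higher in EpiSCs (17.2%) and 995 lower (11.1%). At 4-fold, 407 were higher (4.56%) and 326 lower (3.65%). At 8-fold, 74 were higher and 137 lower. Their median was 0.10. With the scale factor taken over these genes (1.97), 1421 were 2-fold higher and 1054 lower. Longer transcripts stood slightly higher, with medians from -0.10 for the 456 genes under 1000 bases to 0.23 for the 1182 over 6000 bases. Low levels did too, with a median of 0.32 for the 2154 genes at a mean of 3 to 10 RPKM and -0.27 for the 512 over 100 RPKM. These trends are smaller than a 2-fold change, but differences below that size are of the same order.

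The factors of the naive network were lower. All 22 naive factors in the table were at least 2-fold lower in EpiSCs and 19 at least 4-fold lower, with a median of -4.96, against 14.4% of all expressed genes 2-fold lower. The 16 low-copy members were all lower too, with the same median. Of the 22, 12 were under 1 RPKM in EpiSCs and passed the filter only through WT ESCs, and the 10 at 1 RPKM or more in both were lower as well. *Esrrb*, an orphan nuclear receptor of the network, went from 210 to 0.411 RPKM. *Nr0b1* and *Tcl1*, a nuclear receptor and an AKT coactivator, stood at 126 and 96.2 RPKM in WT ESCs and were listed at 0 in EpiSCs. *Tdh*, the threonine dehydrogenase that feeds one-carbon metabolism in mouse ESCs, went from 306 to 0.083. *Tcfcp2l1*, the factor also named *Tfcp2l1*, went from 82.5 to 1.39, *Nr5a2* from 26.4 to 0.0985 and *Tbx3* from 14.9 to 0.279. *Klf5* and *Tet2* kept more of their level, at 88.7 and 16.9 RPKM and at 24.7 and 4.14. *Nanog* was the least changed of the 22, at 418 and 191 RPKM, a log2 difference of -1.12. The *Nanog* call rests on the scaling: the difference was -0.98 with the ratio of genes at 10 RPKM or more, -0.67 at equal totals and -0.21 without scaling.

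The Krüppel-like factors did not move as a block. Of 13 expressed members 6 were lower and 1 higher (5 and 1 of 12 low-copy members), with a median of -0.89 that comes to about 0 without scaling. *Klf2*, *Klf4* and *Klf5*, whose loss together ends ESC self-renewal, were joined by *Klf9* (99.1 to 23.6 RPKM), *Klf8* (10.7 to 3.37) and *Klf3* (53.7 to 25.3). *Klf13* was the exception at 17.5 and 41.5. The promoter of *Klf2* is printed here for comparison with the promoters further on (chr8:72318812-72319111, plus strand, GRCm38.p6, from RefSeq, 250 bases before to 50 after the start), with each CpG in capitals. It holds 32 CpG.
Klf2: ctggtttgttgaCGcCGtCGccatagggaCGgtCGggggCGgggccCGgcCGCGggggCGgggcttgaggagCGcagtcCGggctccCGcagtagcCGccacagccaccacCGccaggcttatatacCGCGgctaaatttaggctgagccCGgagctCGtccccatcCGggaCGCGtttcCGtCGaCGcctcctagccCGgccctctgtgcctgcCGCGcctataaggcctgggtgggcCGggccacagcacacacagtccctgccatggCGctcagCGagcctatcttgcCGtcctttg

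Of 14 general pluripotency factors, which both states use, 9 lay within 2-fold, 5 were lower (14.4% of all genes were) and 0 were higher. The median was -0.85, or 0.06 without scaling, and 2 of the 9 low-copy members were lower. *Pou5f1* stood at 1159 RPKM in WT ESCs and 754 in EpiSCs, *L1td1* at 358 and 306, and *Lin28a* at 231 and 219. *Sox2* went from 397 to 72.6 and *Utf1* from 445 to 139, both low-copy genes. *Tdgf1*, the Nodal co-receptor Cripto, stood at 1079 and 406. *Dppa2* and *Dppa4*, a neighbouring pair of SAP-domain genes, were near 0 in EpiSCs, with 0.444 RPKM after 100 and 0.795 after 167. Their transcripts have 44.6% and 51.0% repeated windows, so the size of these falls is uncertain.

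**Figure D3:**
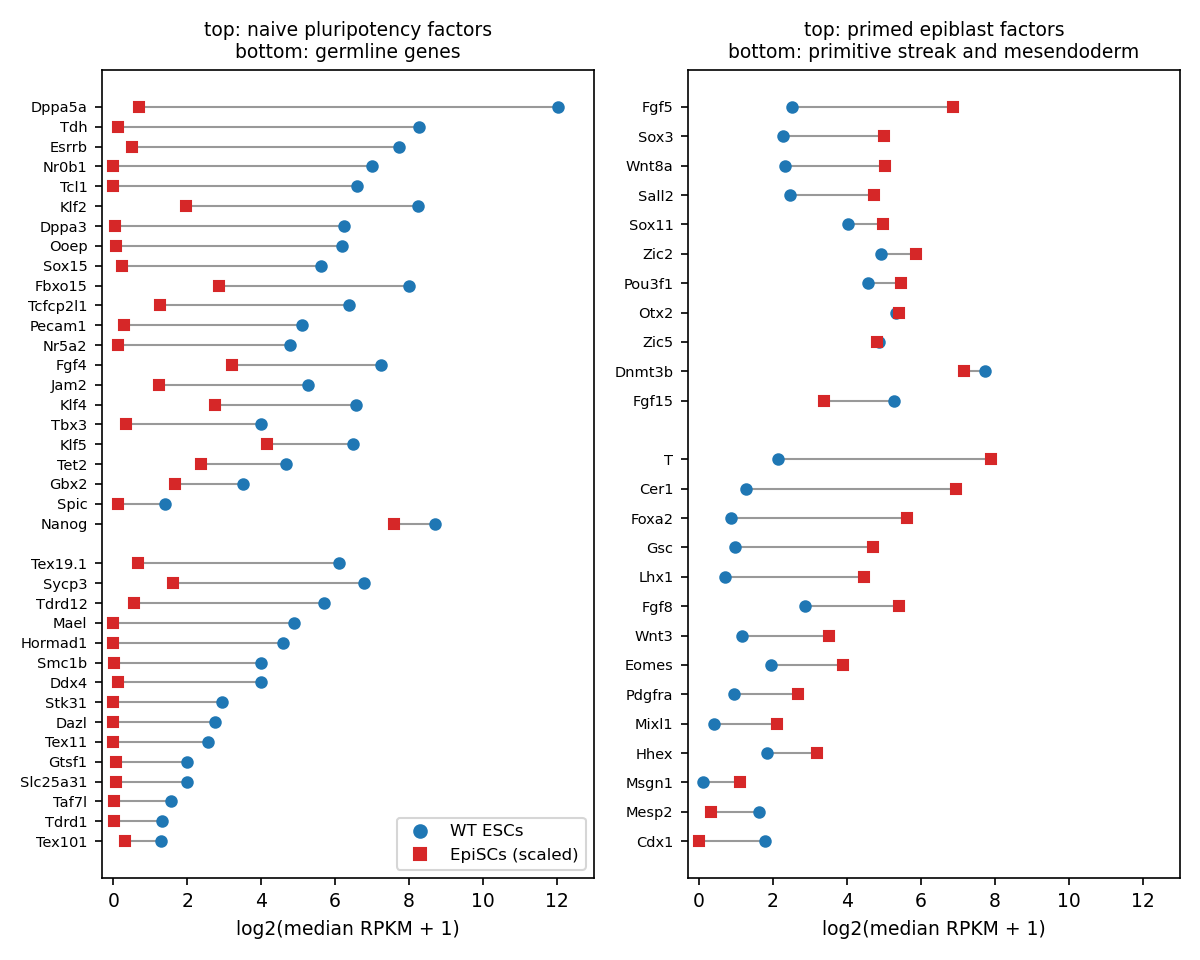
Levels of the naive factors and germline genes (left) and of the primed and primitive streak lists (right), as log2(median RPKM + 1) on the x axis, with WT ESCs as blue circles, scaled EpiSCs as red squares, and 1 gene a line. The EpiSC squares lie left of the WT ESC circles for all 22 naive factors, with *Nanog* the closest pair, and right of them for 12 of 14 streak genes.

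Primed markers were less uniform than naive ones. Of 11 members 4 were higher and 1 was lower, against 15.5% and 14.4% of all genes, and the median was 0.94. It rose to 1.08 with the ratio of genes at 10 RPKM or more, 1.38 at equal totals and 1.84 without scaling, so these counts depend on the scaling. Next to *Fgf5*, the Sox gene *Sox3* went from 3.86 to 31 RPKM, the ligand *Wnt8a* from 4.02 to 31.4 and the zinc finger gene *Sall2* from 4.50 to 25.4. *Zic2*, *Sox11* and *Pou3f1* had differences of 0.94, 0.96 and 0.87, just below the 2-fold line with the scaling used here. *Dnmt3b*, a de novo DNA methyltransferase, was at 210 and 144 RPKM. *Fgf15* went the other way, from 37.4 to 9.42.

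Genes of the primitive streak and mesendoderm stood higher in EpiSCs. Of 14 expressed members, all low-copy, 12 were at least 2-fold higher and 2 lower, with a median of 2.16, against 15.5% of expressed genes 2-fold higher. Of the 12, 6 were under 1 RPKM in WT ESCs, so the filter fixed their direction, and the other 6 were at 1 RPKM or more in both. The 2 lower members passed only through WT ESCs. After *T*, the largest values belonged to *Cer1*, a secreted inhibitor of Nodal, BMP and Wnt (1.42 to 124 RPKM), and *Foxa2*, a forkhead factor of endoderm, node and notochord (0.831 to 48.0). The organizer homeobox genes *Gsc* and *Lhx1* went from 0.948 to 25.2 and from 0.633 to 20.9. *Fgf8* went from 6.26 to 41.1, *Wnt3* from 1.24 to 10.5, and *Eomes* from 2.85 to 13.9. *Mixl1* stood at 3.31 RPKM in EpiSCs and *Msgn1*, of presomitic mesoderm, at 1.15. *Mesp1*, *Evx1* and *Kdr* were under 1 RPKM in both. *Cdx1* and *Mesp2*, at 2.44 and 2.07 RPKM in WT ESCs, were the 2 lower members.

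Some of the 20 largest rises were secreted signals of the node and notochord, a group picked after the ranking was seen. Others of the 20, such as *Hprt*, *Isg15* and *Usp18*, lie outside that group. *Shh*, the Hedgehog ligand of the notochord, was listed at 0 in WT ESCs and stood at 56.2 RPKM in EpiSCs. The BMP antagonists *Nog* and *Chrd* went from 0.638 to 36.0 and from 1.2 to 40.4 RPKM, and the Wnt antagonist *Dkk1* from 0.363 to 22.0. *Bmp2* went from 0.216 to 21.7. The list of 20 also held *Mgp*, a matrix protein that binds BMP (0.490 to 137), *Igfbp5* (0.673 to 63.5), *Aplnr*, the apelin receptor of mesendoderm (0.0458 to 37.8), and *Pomc*, a peptide hormone precursor (2.33 to 99.2). *Shh*, *Nog*, *Dkk1*, *Bmp2*, *Mgp*, *Igfbp5* and *Aplnr* were under 1 RPKM in WT ESCs, so the filter fixed their direction. None of the genes with levels given in this paragraph had over 5% repeated windows. Single-cell data were not measured, so a low level in all cells and a high level in few cannot be told apart.

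The promoters of *Fgf5*, *T* and *Cer1* show how different in sequence the starts of the higher genes are. They lie at chr5:98253934-98254233 (plus strand), chr17:8434173-8434472 (plus strand) and chr4:82885102-82885401 (minus strand) in GRCm38.p6, come from RefSeq, run from 250 bases before to 50 after the start, and have CpG in capitals. *Fgf5* holds 29 CpG in 300 bases, *T* 17 and *Cer1* 6.
Fgf5: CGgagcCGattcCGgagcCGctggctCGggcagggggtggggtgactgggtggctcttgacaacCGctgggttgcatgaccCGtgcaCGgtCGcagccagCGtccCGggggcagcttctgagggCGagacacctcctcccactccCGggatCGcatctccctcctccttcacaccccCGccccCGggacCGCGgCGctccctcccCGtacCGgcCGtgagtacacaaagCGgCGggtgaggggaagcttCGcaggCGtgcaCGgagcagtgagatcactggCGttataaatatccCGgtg
T: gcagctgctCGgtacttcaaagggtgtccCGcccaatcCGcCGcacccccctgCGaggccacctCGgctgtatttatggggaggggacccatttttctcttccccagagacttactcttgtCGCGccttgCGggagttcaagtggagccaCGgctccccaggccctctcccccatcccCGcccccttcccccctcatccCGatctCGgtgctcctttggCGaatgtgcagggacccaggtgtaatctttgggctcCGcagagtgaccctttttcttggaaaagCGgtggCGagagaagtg
Cer1: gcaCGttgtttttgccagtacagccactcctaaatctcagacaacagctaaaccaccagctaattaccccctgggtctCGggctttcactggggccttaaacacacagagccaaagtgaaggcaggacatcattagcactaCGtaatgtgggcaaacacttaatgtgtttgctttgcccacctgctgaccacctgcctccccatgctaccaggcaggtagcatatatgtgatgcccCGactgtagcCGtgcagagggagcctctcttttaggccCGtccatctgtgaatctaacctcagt

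Of 24 expressed Fox genes 9 were higher, 3 lower and 12 within 2-fold, against 15.5% and 14.4% of all genes higher and lower. Of the 24, 9 passed the filter only through EpiSCs, and of the 11 at 1 RPKM or more in both 1 was higher. In the forkhead family *Foxa1* (0.330 to 17.7 RPKM), *Foxj1* (2.61 to 28.0), *Foxd1* (0.191 to 7.85) and *Foxb1* (0.0356 to 5.74) came after *Foxa2*. Of 11 expressed Sox genes 5 were higher and 4 within 2-fold, the higher ones including *Sox9* (0.129 to 16.6), *Sox17* (0.237 to 6.67) and *Sox4* (23.4 to 67.1). *Sox9* and *Sox17* passed the filter only through EpiSCs, and 2 other Sox genes only through WT ESCs, so the filter fixed their direction. Among the 7 Sox genes at 1 RPKM or more in both, 3 were higher and 1 lower. *Sox15* and *Sox2* were the 2 lower members, with *Sox15* at 48.1 and 0.180. Hox genes were almost silent in both states, with 29 of 31 under 1 RPKM in both. The T-box family had 11 of 16 members under 1 RPKM in both, and *T*, *Eomes* and *Tbx3* were its 3 members past 2-fold.

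EpiSCs were kept with Activin A, which acts through the Nodal receptors and SMAD2/3. In the Nodal and Activin list 6 of 20 members were higher and 4 lower, with a median of 0.29, against 15.5% and 14.4% of all genes. Of its 17 low-copy members 5 were higher and 2 lower. The secreted inhibitors went in both directions. *Lefty1* went from 246 to 891 RPKM and *Fst* (follistatin, which binds activin) from 2.60 to 40.9, whereas *Lefty2*, the neighbour of *Lefty1*, went from 180 to 26.0. *Lefty1* and *Lefty2* have 18.4% and 14.8% repeated windows. *Nodal* itself was at 68.7 and 64.8 RPKM, a difference of -0.08 that becomes 0.82 without scaling and 0.36 at equal totals. The co-receptor *Cfc1* (2.32 to 14.6) and the effector *Smad3* (8.23 to 33.5) were higher, while *Smad2* was at 25.9 and 26.3.

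In the BMP list 7 of 17 members were higher and 2 lower, against 15.5% and 14.4% of all genes, with a median of 0.70. The filter fixed the direction of 2 members that passed only through EpiSCs and 1 only through WT ESCs. Among the 14 at 1 RPKM or more in both, 5 were higher and 2 lower. *Bmp2* and *Bmp7* (3.54 to 44.9 RPKM) were higher together with the antagonists *Nog*, *Chrd* and *Grem1* (5.57 to 24.3). *Bmp4*, which serum-grown ESCs express, went the other way, from 25.9 to 8.78. The target genes *Id1* (27.8 and 25.7) and *Id2* (28.0 to 13.2) were not higher with the ligands.

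The FGF list had 8 of 21 members higher and 6 lower (8 and 5 of 19 low-copy members), with a median of 0.19. The shares of all genes were 15.5% and 14.4%. Its ligands differed in both directions. *Fgf4*, the autocrine ligand of ESCs, went from 151 to 8.23 RPKM while *Fgf5* and *Fgf8* were higher. Feedback genes of ERK signalling were split, with *Dusp6* (34.8 to 96.3) and *Phlda1* (5.51 to 24.5) higher, and *Spry4* (34 to 8.22) and *Etv5* (299 to 87.9) lower.

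The LIF and STAT3 list was lower or level. Of 11 members 5 were lower (14.4% of all genes were) and 0 higher, with a median of -0.88, or 0.01 without scaling. The receptor *Lifr* went from 12.9 to 3.88 RPKM. The STAT3 targets *Socs3* (88.3 to 14.3), *Bcl3* (28.2 to 4.28) and *Pim3* (181 to 46.9) were lower, and *Jak1* was at 19.8 and 27.8. The EpiSC medium contained no LIF by the labels.

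Of 27 expressed Wnt genes, all low-copy, 13 were higher and 2 lower, with a median of 0.86. Among all low-copy genes 17.2% were higher and 11.1% lower. Of the 13, 5 passed the filter only through EpiSCs, and the 2 lower ones passed only through WT ESCs. The receptors *Fzd2* (8.04 to 66.1 RPKM), *Fzd1* (0.569 to 7.94) and *Fzd8* (2.26 to 13.7) were higher, with the ligands *Wnt8a* and *Wnt3*. *Lgr5*, an R-spondin receptor, went from 0.0486 to 4.55, and the ligand *Rspo3*, outside the list, from 0.287 to 13.6. The direct target *Axin2* was level, at 7.04 and 6.08 RPKM, and *Ctnnb1* (β-catenin) was at 378 and 376. *Wnt7b* (4.32 to 0.561) and *Sfrp5* were the 2 lower members.

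Of 13 Notch genes 5 were higher and 3 lower (5 and 2 of 12 low-copy genes), against 15.5% and 14.4% of all genes. *Notch3* went from 34.9 to 140 RPKM, *Hes1*, a target, from 24.5 to 67.8, and *Dll1*, a ligand, from 12.4 to 1.76. In the Hippo list 6 of 11 were higher and 1 lower, against the same shares of all genes, with a median of 1.18. The YAP targets *Cyr61* and *Ctgf*, secreted matrix proteins, went from 25.2 to 370 and from 38.9 to 248. *Yap1* was at 38.3 and 52.1, and *Ankrd1*, another target, at 1.53 and 1.27.

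The cadherins of epithelium and mesenchyme differed in opposite directions. *Cdh1* (E-cadherin) went from 238 to 99.9 RPKM and *Cdh2* (N-cadherin) from 3.10 to 41.4. *Vim*, the intermediate filament of mesenchyme, went from 134 to 616. The splicing factor *Esrp1* and the epithelial factor *Grhl2* were lower, at 36.0 and 10.9 and at 19.9 and 2.80. *Epcam* was at 195 and 175, and *Snai1*, an inducer of the epithelial to mesenchymal transition, at 4.73 and 6.24. Keratins of simple epithelium were higher, *Krt8* from 53.8 to 228, *Krt18* from 48.5 to 173 and *Krt19* from 25.9 to 77.2. Other keratins were lower, with *Krt42* at 25.4 and 0.271, and of 7 expressed keratin genes 3 were higher and 3 lower. Of the 14 genes listed for epithelial keratins and junctions, 3 were higher and 5 lower, with a median of -0.24. Of the 13 genes listed for cadherins and the mesenchymal transition, 5 were higher and 3 lower. Both lists stand against 15.5% and 14.4% of all genes higher and lower.

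Of 21 expressed collagens, all low-copy, 13 were at least 2-fold higher and 2 lower, with a median of 1.89, against 15.5% and 14.4% of all genes. Of the 15 collagens at 1 RPKM or more in both, 10 were higher and 1 lower. In the list of basement membrane and matrix genes 3 of 13 were higher, 2 lower and 8 within 2-fold, with a median of 0.37. *Col3a1* went from 2.66 to 54.1 RPKM, *Col2a1* from 4.93 to 52.2, *Col1a2* from 5.73 to 49.4 and *Col5a1* from 8.43 to 58.0. *Serpinh1*, the collagen chaperone, went from 39.1 to 449. Vitronectin (*Vtn*) went from 0.0405 to 12.6, and *Sparc* from 81.7 to 264. Laminin *Lama1* went the other way, from 11.2 to 1.79, while the laminin genes *Lamc1*, *Lamb1* and *Lama5* were level. Of 9 expressed fibroblast and mesenchyme markers, 6 were higher and 0 lower, with a median of 1.16. Their summed level was 146 RPKM in WT ESCs and 399 in EpiSCs. *Pdgfrb* was at 3.77 and 5.13 and *Thy1* at 20.5 and 26.4. *Col1a1*, *Col1a2* and *Col3a1* are in both sets, and whether stromal cells contribute to the matrix genes was not tested.

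Guidance genes of the Eph, ephrin, semaphorin and Slit families were higher in 13 of 23 cases and lower in 2, with a median of 1.13. The shares of all genes were 15.5% and 14.4%. Among the 19 guidance genes at 1 RPKM or more in both, 10 were higher and 1 lower. *Slit3* went from 5.77 to 52.9 RPKM, *Efnb1* from 3.09 to 24.5 and *Sema6a* from 3.19 to 22.7. *Epha4* (15.1 to 5.00) and *Sema4a* were lower. Of the clustered protocadherins, neural adhesion genes that share constant exons within each cluster, 10 of 21 were expressed. Of these, 9 passed the filter only through EpiSCs, so their direction was fixed by the filter. *Pcdhgc5*, the only one at 1 RPKM or more in both, was at 4.08 and 18.5.

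Germ cell genes were expressed almost only in WT ESCs. Of 18 in the table, 15 reached 1 RPKM in WT ESCs and 1 in EpiSCs, while 3 were under it in both. Since 14 of the 15 passed the filter only through WT ESCs, their direction was fixed by the filter, and their levels are given as a description. *Sycp3*, of the synaptonemal complex, went from 110 to 2.04 RPKM, *Tex19.1* from 67.4 to 0.592 and *Tdrd12*, of the piRNA pathway, from 50.8 to 0.467. *Ddx4* (Vasa) went from 15.0 to 0.0864. *Mael*, *Hormad1*, *Stk31*, *Dazl* and *Tex11* were listed at 0 in EpiSCs, from 28.6, 23, 6.71, 5.76 and 4.89 RPKM. The reproductive homeobox genes *Rhox13*, *Rhox6* and *Rhox1*, the 3 of 8 Rhox genes that passed the filter, did so only through WT ESCs and were listed at 0 in EpiSCs. Outside the lists, *Triml2* and *Triml1* (112 and 52.6 RPKM in WT ESCs) were listed at 0, and *Morc1*, which acts in transposon silencing in the male germline, went from 81.3 to 0.110.

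Many germline promoters are silenced by DNA methylation at CpG. The promoters of *Sycp3* (chr10:88459337-88459636, plus strand) and *Dazl* (chr17:50293571-50293870, minus strand) are shown from RefSeq in GRCm38.p6 with the same window and capitals. They hold 15 and 28 CpG. Methylation was not measured in these samples.
Sycp3: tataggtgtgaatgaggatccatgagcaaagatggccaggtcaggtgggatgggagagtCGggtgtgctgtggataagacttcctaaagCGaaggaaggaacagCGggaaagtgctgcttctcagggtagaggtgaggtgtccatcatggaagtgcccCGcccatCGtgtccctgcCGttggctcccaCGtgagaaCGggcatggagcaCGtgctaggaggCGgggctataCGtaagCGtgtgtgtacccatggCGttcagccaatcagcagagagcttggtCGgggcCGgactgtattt
Dazl: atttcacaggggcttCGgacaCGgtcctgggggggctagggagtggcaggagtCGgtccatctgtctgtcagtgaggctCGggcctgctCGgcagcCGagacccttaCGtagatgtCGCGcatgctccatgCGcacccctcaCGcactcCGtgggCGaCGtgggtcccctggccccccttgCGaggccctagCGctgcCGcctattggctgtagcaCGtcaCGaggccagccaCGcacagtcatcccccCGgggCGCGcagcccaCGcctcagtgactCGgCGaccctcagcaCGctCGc

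The enzymes of DNA methylation differed within the family. *Dnmt3l*, the cofactor of the de novo methyltransferases, went from 183 to 0.436 RPKM, and stood at 392 in *Nanog*-/- ESCs. *Tet1* and *Tet2*, which oxidize methylcytosine, went from 100 to 18.0 and from 24.7 to 4.14, while *Tet3* went from 1.39 to 9.37. *Dnmt1* (172 and 108) and *Dnmt3a* (21.1 and 23.5) lay within 2-fold. Of the 9 genes 1 was higher and 4 were lower, and of the 6 low-copy ones 1 and 3.

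Across the low-copy genes, the median number of CpG dinucleotides in the 300 bases around the transcript start was highest for the genes within 2-fold. The median was 12 CpG for the 326 genes at least 4-fold lower, 16 for the 669 genes 2-fold to 4-fold lower, and 21 for the 6396 genes within 2-fold. It was 19 for the 1127 genes 2-fold to 4-fold higher and 16 for the 407 genes at least 4-fold higher. Promoters with 5 or fewer CpG made up 23.6%, 19.6%, 8.16%, 14.4% and 22.1% of these classes in the same order, and 11.0% of all 8925. A CpG was present in 99.4% of these promoters. The middle 50% of every class overlapped that of every other.

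**Figure D4:**
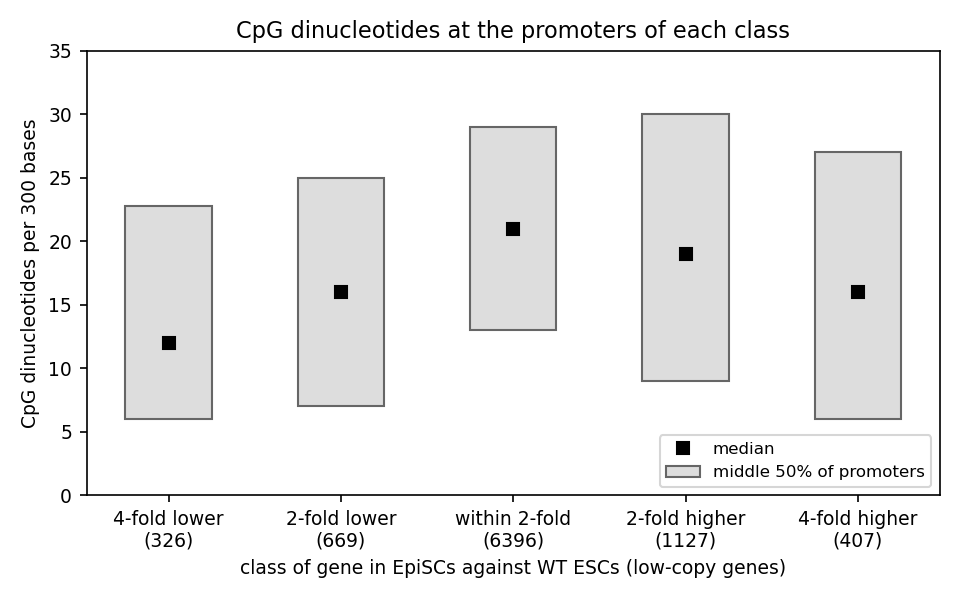
CpG dinucleotides in the 300 bases around the transcript start (y axis) for low-copy genes, grouped on the x axis by their class in EpiSCs against WT ESCs, with the number of genes in brackets. Grey bars span the middle 50% of promoters and squares are medians, which are 12 and 16 in the outer classes and 21 in the middle one.

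Of 26 Polycomb genes 14 lay within 2-fold, 5 were higher and 7 lower, with a median of -0.08, against 15.5% and 14.4% of all genes. PRC2 accessory and core genes were among the 7, with *E130012A19Rik* (the gene of EPOP) at 188 and 28.0 RPKM, *Mtf2* at 156 and 46.1, *Eed* at 211 and 64.2, and *Jarid2* at 124 and 41.4. Of the PRC1 genes, *Cbx7* was lower (98.3 to 35.3) and *Bmi1* (1.58 to 8.24), *Phc2* (7.60 to 27.6) and *Yaf2* (10.2 to 35) were higher. Among 22 chromatin regulators 3 were higher and 3 lower, with *Smarca2*, the alternative ATPase of the BAF complex, at 0.612 and 9.52, and *Kdm6b*, a demethylase of H3K27, at 12.9 and 40.7. *Hdac1* went from 158 to 19.6 with 75.4% repeated windows, and *Hdac2* was at 73.1 and 99.5.

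Imprinted genes, which are expressed from 1 parental allele, differed in both directions. Of 22 expressed members 9 were higher and 4 lower, with a median of 0.17, against 15.5% and 14.4% of all genes. Among the 18 at 1 RPKM or more in both, 7 were higher and 2 lower. *Mest* went from 5.77 to 89.6 RPKM, *Igf2* from 9.74 to 121, *Grb10* from 45.8 to 178 and *Plagl1* from 0.185 to 7.59. *Slc38a4*, an amino acid transporter, went from 144 to 0.400, the largest fall of the 264 solute carriers in the table. *Plagl1* and *Slc38a4* were under 1 RPKM in 1 cell type, so the filter fixed their direction. *Zfp57*, which protects imprints, went from 112 to 38.4.

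Several genes of lipid synthesis were higher in EpiSCs. *Scd2*, a fatty acid desaturase, went from 246 to 1855 RPKM and was the gene with the seventh highest level in EpiSCs. *Fads2* went from 62.6 to 405, *Fads1* from 40.5 to 204, *Fasn* from 100 to 228 and the regulator *Srebf1* from 34.3 to 107. *Scd1*, the paralog of *Scd2*, went from 52.8 to 3.04. In all 5 of 9 genes of fatty acid synthesis were higher and 1 was lower, against 15.5% and 14.4% of all genes. Of 14 cholesterol genes 6 were higher (6 of 11 low-copy genes), among them *Hsd17b7* (6.53 to 20.0), *Sc4mol* (35 to 97.7) and *Cyp51* (49 to 130). *Idi1* was the only lower one, at 65.9 and 4.23, with 80.2% repeated windows. *Cpt1a*, which admits fatty acids to mitochondria, went from 36.9 to 5.63, and *Acadl* from 25.3 to 74.2. N2B27 is a medium without serum, and medium and state cannot be told apart here.

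Glycolysis genes were lower in 9 of 22 cases and higher in 0, with a median of -0.79, or 0.12 without scaling. The share of all genes that were lower was 14.4%. Among the 13 low-copy members 3 were lower and the median was -0.52. The 3 were *Pfkp*, a phosphofructokinase (114 to 10.9 RPKM), *Pdk1*, which inhibits pyruvate dehydrogenase (81.4 to 29.0), and *Hk1* (21.8 to 9.62). *Eno1* and *Pgam1*, lower at 135 and 188 RPKM after 1096 and 1112, are not low-copy. The pyruvate kinase gene (*Pkm2* in the table) was at 4274 and 2922, *Ldha* at 1426 and 1203, and *Slc2a1*, the glucose transporter, at 535 and 372. *Gldc*, the glycine cleavage enzyme, went from 264 to 41.5. The metallothioneins *Mt1* and *Mt2* went from 277 to 65.7 and from 407 to 66.2. Of 65 nuclear genes of the respiratory chain 48 were within 2-fold, 16 lower and 1 higher, and of the 42 low-copy ones 5 were lower. *Ndufa4l2* had the largest fall of them, at 89.4 and 1.30, and *Cox6b2*, at 97.0 and 215, was the higher one.

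Of 17 interferon response genes 9 were higher and 3 lower, with a median of 1.02, against 15.5% and 14.4% of all genes, and of the 11 low-copy ones 7 were higher and 0 lower. *Isg15*, a ubiquitin-like modifier, went from 2.24 to 95.3 RPKM, and *Usp18*, the enzyme that removes it, from 0.410 to 33.8. *Oasl2* went from 1.68 to 15.6 and *Irf7* from 0.282 to 6.77. The 3 lower members were *Ifitm1* (448 to 25.2), *Ifitm2* and *Ifitm3*, none of which is low-copy. *B2m*, the light chain of MHC class I, went from 55.7 to 364, and 5 of 6 genes of antigen presentation were higher. The chemokines *Ccl2* (3.56 to 39.7), *Ccl7* (2.39 to 27.3) and *Cxcl10* (1.05 to 12.5) were higher too, with 7 of 15 expressed chemokine genes and receptors higher and 2 lower (6 and 0 of 12 low-copy genes). Of the interferon genes 4 passed the filter only through EpiSCs, and of the 13 at 1 RPKM or more in both 5 were higher and 3 lower.

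Proliferation genes lay mostly within 2-fold. Of 14 mitosis genes 1 was lower and 0 higher, and of 13 replication genes 1 was lower and 0 higher. The G1 regulators differed by gene. *Ccnd2* (cyclin D2) went from 10.4 to 81 RPKM, *Cdkn1a* (p21) from 58.7 to 150 and *Cdkn2b* from 3.43 to 15.6, while *Ccne1* (cyclin E1) went from 194 to 47.8 and *Mycn* from 164 to 45.6. *Myc* was at 24.2 and 29.2, and *Ccnd1* at 86.4 and 105. In the Bcl2 family, *Bcl2* went from 0.447 to 5.48, and *Pmaip1* (Noxa) and *Mcl1* were lower, at 16.8 and 1.62 and at 350 and 121.

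Markers of other cell types were read as a check on the cultures. Of 22 neural genes in the table, 11 were under 1 RPKM in both states, among them the proneural factors *Neurog1* and *Neurog2*. *Nes* (nestin) went from 11.8 to 144 RPKM and the neurofilament genes *Nefm* and *Nefl* from 7.11 to 48.7 and from 22.4 to 93, whereas *Stmn2* went from 347 to 8.53 and *Pax6* was at 1.45 and 1.07. Of 12 primitive endoderm genes 6 were under 1 RPKM in both, including *Hnf4a*, *Afp* and *Ttr*. Of the 12, 4 were higher (15.5% of all genes were). *Gata6* was at 0.538 and 4.33 and *Gata4* at 1.29 and 0.518. Only 1 of the 6 expressed primitive endoderm genes was at 1 RPKM or more in both. Another 3 passed the filter only through EpiSCs and 2 only through WT ESCs, which fixed their direction. Of 12 blood and endothelial genes 7 were under 1 RPKM in both, including *Ptprc* and *Cdh5*. Of the 5 expressed ones, all at 1 RPKM or more in 1 state only, *Lmo2* (0.568 to 6.44) and *Runx1* (0.390 to 1.96) were higher, and *Tek* (3.69 to 0.387) and *Etv2* (2.26 to 0.286) lower. Of 6 expressed trophoblast genes 3 were lower and 0 higher, with *Elf3* at 41.0 and 5.17, while *Cdx2* and *Elf5* were under 1 RPKM in both. The 4 trophoblast genes at 1 RPKM or more in both included 2 of the lower ones. The part of these other cell types in the differences between the states was not tested. A larger share of such cells and a higher level per cell cannot be told apart.

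**Figure D5:**
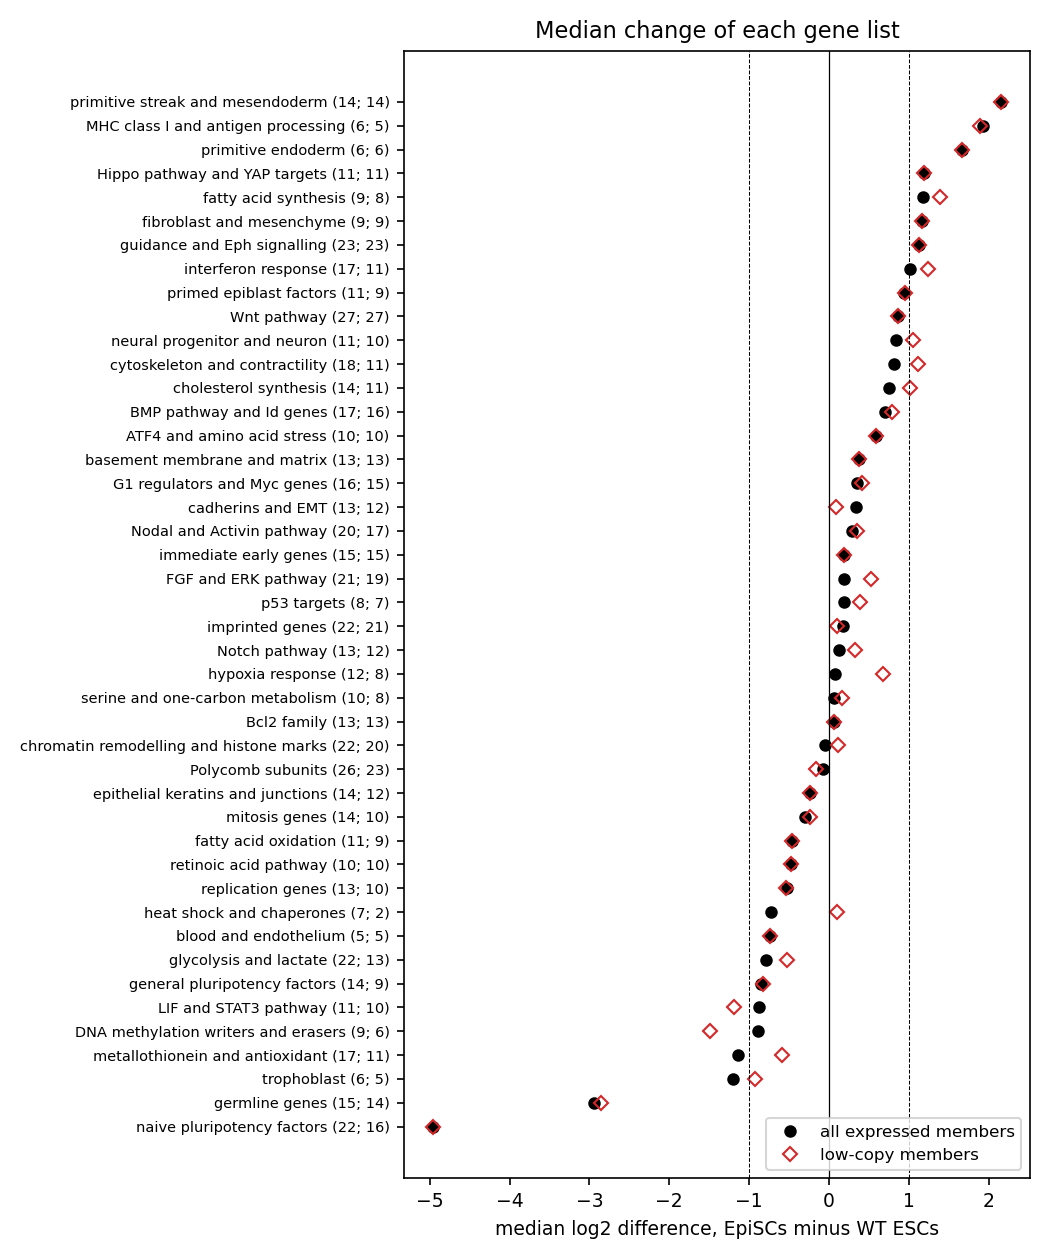
Median log2 difference, EpiSCs minus WT ESCs, on the x axis for each gene list with at least 3 expressed members, over all expressed members (black circles) and over the low-copy members (red diamonds), with both numbers in brackets. The naive list lies farthest left at -4.96 and the streak list farthest right at 2.16. The filter fixes the direction of members under 1 RPKM in 1 cell type, which most germline genes (-2.95) are.

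Complete switches were fewer than graded differences. Among low-copy genes, 68 stood at 10 RPKM or more in WT ESCs and under 0.5 in EpiSCs, and 25 the reverse. The 68 included *Esrrb*, *Nr5a2*, *Tbx3*, *Pecam1*, *Mael*, *Ddx4*, *Dmrt1* and the meiotic cohesin genes *Smc1b* and *Rec8*. The 25 included *Shh*, *Mgp*, *Aplnr*, *Bmp2*, *Dkk1*, *Foxa1*, *Sox9*, *Rspo3* and *Vtn*. The genes with the highest levels were largely common to both columns. *Hsp90ab1* (4600 and 3283 RPKM), *Ptma* (4845 and 2923), *Pkm2*, *Eef2* (3401 and 2394) and *Rplp1* (5099 and 1832) were among the 15 highest in each.

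The promoter contacts of the same cell types were listed by promoter capture Hi-C. The WT ESC list holds 100492 different pairs of fragments and the EpiSC list 87369. The labels give 5 samples for the WT ESC list and 2 for the EpiSC list, and the part of this in the number of pairs was not tested. Of the 6396 low-copy genes within 2-fold, 36.8% had more listed contacts in EpiSCs and 48.0% fewer. Of the 407 genes at least 4-fold higher in EpiSCs, 46.2% had more and 39.3% fewer, and of the 326 at least 4-fold lower, 31.3% had more and 49.4% fewer. These shares are descriptive, since each list combines the replicates of its cell type. Among the 14 expressed streak genes 4 had more contacts in EpiSCs and 7 fewer. Of the 22 naive factors 6 had more and 11 fewer.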

How the data were processed

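RNA of 3 WT ESC, 3 *Nanog*-/- ESC and 4 EpiSC samples was prepared by the authors from 500 ng total RNA with an mRNA library kit and sequenced as 50 or 100 base single-end reads. The submitters' processing notes name Trim Galore, TopHat, DESeq2 and the build GRCm38/mm10, and versions, counting, strand and the treatment of reads with several matches are not given in the sources used here. The deposited table gives RPKM, scaled by the authors for the length of each gene and the size of each library, and only the median of each group. Its rows are genes with a capture bait. The deposited log2 fold changes and p-values hold the authors' own comparisons and were not used. The column named BT12 was read as *Nanog*-/- from the name of the line. The deposited contact lists give read counts and CHiCAGO scores made by the authors from combined replicates, and only the number of listed pairs per promoter was used.

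The table has 15741 rows. For 57 genes in several rows, 1 row was kept (the rows hold equal values), and 2 genes without values were left out. Levels were compared as log2(RPKM + 1) after scaling by the median ratio. With 1 value per group a gene was called past a fold of 2 or 4, with no test. The calculation was tested on simulated data. Windows of 50 bases, every 10 bases of 1 GENCODE transcript per gene, were searched on both strands of GRCm38. RefSeq promoter sequences matched 10653 genes by symbol. CpG were counted around GENCODE starts. Python 3.11.15, numpy 2.4.6, pandas 2.3.3, numba and matplotlib 3.10.9 were used. Alternatives were pseudocounts of 0.1 and 5, filters of 0 and 5 RPKM, 3 other scalings, the first row of a gene, and low-copy genes only, the last chosen after seeing the data.

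Named genes are the markers, the 20 largest rises and falls, the 15 highest genes of each cell type, and of each list or family up to 6 members with the largest change and its highest member. Other members named in the text were chosen after their values were seen. The genes, lists and comparison were chosen with earlier results of these data known. A few genes are not reported here.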

Additional observations from a re-analysis of the deposited data

How the results depend on the processing

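The 4 counts of higher and lower genes were within 1.5 times of their values with no filter on low values, with a filter at 5 RPKM, with the scale factor of genes at 10 RPKM or more in both, and with the first row of a gene kept. With a pseudocount of 0.1 RPKM, 878 genes were 4-fold higher and 1007 lower. With a pseudocount of 5 RPKM the counts were 778 higher and 910 lower at 2-fold, and 106 and 318 at 4-fold. Without scaling, 4702 genes were 2-fold higher, 904 lower and 1304 4-fold higher. With equal totals, 2741 were 2-fold higher and 752 4-fold higher. Higher genes made up 51.9% of the 2-fold calls, 83.9% without scaling, 71.0% at equal totals and 58.6% with the factor of genes at 10 RPKM or more. In an alternative chosen after seeing the data, low-copy genes only, 995 genes were 2-fold lower and 326 4-fold lower (337 with the factor taken over them). The median of the Gm genes changed sign there, from -1.71 to 0.29 and 0.24. Of 80 list and family medians, 18 had the other sign without scaling, 7 at equal totals and 2 with the factor of genes at 10 RPKM or more. Of 594 expressed list members, 311 were past 2-fold. None changed sign past it, while 29 calls were lost at equal totals, 55 without scaling and 73 with a pseudocount of 5. More members came to pass 2-fold than were lost under these 2 scalings, 51 at equal totals and 117 without scaling. No paired analysis was possible because the table gives 1 median per group and no value per sample, and leaving out a replicate was not possible for the same reason. Depth is unknown, so no precision can be given for low levels.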

Other observations

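Several groups were mostly within 2-fold. Of 10 genes of the ATF4 response 2 were higher and 1 lower, with *Atf3* at 3.21 and 21.9 RPKM in WT ESCs and EpiSCs. Of 8 p53 targets 2 were higher and 0 lower. Of 52 mitochondrial ribosomal proteins 45 lay within 2-fold. Of 28 proteasome subunits 27 were expressed and 23 of these within 2-fold, and the germ cell subunit *Psma8* (18.6 to 0.183) and the immunoproteasome subunit *Psmb8* (3.96 to 16.3) differed in opposite directions. Of 232 expressed numbered zinc finger genes 27 were higher and 14 lower, with *Zfp819* at 19.4 and 0.0311 and *Zfp703* at 1.14 and 25.8. Immediate early genes were split, with *Fos* at 45.3 and 12.3, *Fosb* at 9.50 and 1.04, and *Egr3* at 0.182 and 3.71.

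By chromosome, the median difference of low-copy genes ranged from -0.03 on chromosome 11 (733 genes) to 0.32 on the X chromosome (254 genes), with 21.7% of the X genes higher and 12.2% lower. Chromosome 3 had the largest share of higher genes, 23.6% of 403.

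*Nanog*-/- ESCs share the WT ESC column with the comparison above, so only levels are given side by side. *Nanog* stood at 418 RPKM in WT ESCs, 22.3 in *Nanog*-/- ESCs and 191 in scaled EpiSCs. *Klf4* was at 93, 31.7 and 5.76 in the same order, *Dppa3* at 74.1, 13.6 and 0.032, *Esrrb* at 210, 147 and 0.411, and *Morc1* at 81.3, 31.5 and 0.110. *Dppa3* is not a low-copy gene. *Dnmt3l* was at 183, 392 and 0.436, *Fgf5* at 4.74, 1.11 and 116, and *Dkk1* at 0.363, 2.73 and 22.0.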
